A study of Homo sapiens with 6 samples.

Results

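Genes that load, store and release calcium in the sarcoplasmic reticulum of heart muscle cells, or move it out across the cell membrane, were followed in cardiomyocytes with and without the kinase STK25. They were chosen by symbol: ATP2A2, PLN, SLN, RYR2, ITPR1, CASQ2, HRC, TRDN, JPH2 and SLC8A1. All 10 were listed among the 35793 genes of the deposited table and all 10 were tested. The cardiomyocytes were made from WTC11, an established human line of induced pluripotent stem cells, and were taken on day 15 of differentiation without treatment. One group was unedited WTC11 (wild type, 3 libraries) and the other was a WTC11 derivative with a homozygous CRISPR/Cas9 knockout of STK25 (STK25KO, 3 libraries). The knockout is 1 edited line, so the edit and any other difference between the lines cannot be told apart, and the p-values below measure only the spread between these cultures.

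At each heartbeat a small calcium current through the surface membrane opens ryanodine receptors, which release the calcium stored in the sarcoplasmic reticulum, and the muscle filaments contract. Relaxation follows when SERCA pumps return calcium to the store and the sodium-calcium exchanger carries the rest out of the cell. Phospholamban and sarcolipin are short membrane proteins that slow the pump, and calsequestrin is the protein that binds calcium inside the store. Cardiomyocytes grown from stem cells are known for an immature store, with sparse surface tubules and much calcium entering from outside.

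Of the 10 genes 2 passed the test, beside 12.8% of all genes tested. CASQ2 rose to 3.58 times its wild-type mean and PLN fell to 58.8% of its own in STK25KO. Neither call was stable: that of CASQ2 was lost in 9 of 20 alternative analyses and that of PLN in 10. The pump gene ATP2A2 had a mean 1.74 times that of the wild type without passing, so the ratio of the inhibitor PLN to its target pump was 2.98-fold higher in the wild type, with no overlap between the genotypes. ITPR1 had 25.6% of its wild-type mean and missed the threshold narrowly. RYR2, the release channel of heart muscle, had 90.0% of its wild-type mean, and the 2 genotypes overlapped.

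Values are normalized counts, that is, whole counts (called reads below) divided by 1 factor per library. Reads assigned to genes ran from 22443904 to 53224112 per library. The test was limma on log2(normalized count + 1) over 15536 genes with a mean of at least 10, and a call is a Benjamini-Hochberg adjusted p under 0.05. It called 12.8% of all genes tested, 5.97% higher and 6.79% lower in STK25KO. Among the 10 genes it called 1 higher and 1 lower. STK25 itself, the check on the labels, had 8874, 6774 and 8710 normalized counts in wild-type replicates 1, 2 and 3 and 3906, 3434 and 3820 in STK25KO. Its log2 fold change was -1.12 (SE 0.19, limma adjusted p = 0.00903), and its limma adjusted p was 0.0611 without wild-type replicate 1 (log2 fold change -1.05).

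Wild-type replicate 2 and STK25KO replicate 1 stood apart from the other libraries. In those 2, genes with the longest transcripts (over 5341 bases) sat lower, against their own genotype's mean, than genes with the shortest (under 2264 bases), by -0.49 and -0.35 on the log2 scale. In the other 4 libraries the same difference ran from 0.00071 to 0.35. ATP2A2, JPH2 and SLC8A1 had their lowest value of each genotype in these 2 libraries, except that SLC8A1 in STK25KO was marginally lower in replicate 3. PLN, TRDN and HRC had their highest there. JPH2 and TRDN went opposite ways with transcripts of 4787 and 4770 bases. RYR2, at 16562 bases, was lowest of its genotype in wild-type replicate 2 and highest in STK25KO replicate 1. The part of transcript length in these values was not tested. Values without the 2 libraries, an alternative chosen after the data were seen, are given beside the calls and directions that they change. Under it 30.6% of 15381 genes were called, 15.7% higher and 14.9% lower, beside 4 of the 10 genes higher and 2 lower.

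**Figure D1:**
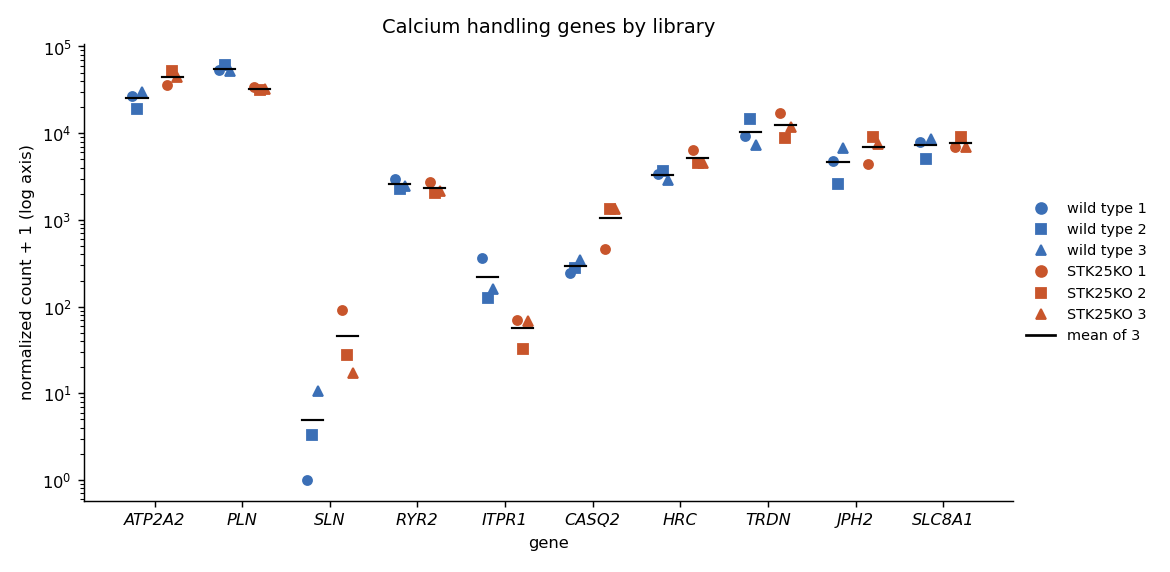
Normalized count plus 1 (log axis) of each of the 10 genes in every library, with wild type in blue, STK25KO in orange, the marker shape giving the replicate number and the bar the mean of 3. The genotypes separate for ATP2A2, PLN, SLN, ITPR1, CASQ2 and HRC and overlap for RYR2, TRDN, JPH2 and SLC8A1.

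The pump and its inhibitors were compared first. ATP2A2, which encodes the SERCA2 pump, lies on chromosome 12 (110280756 to 110351093, plus strand). Positions of genes are those of GENCODE 29 on GRCh38, the build that the submitters' processing notes name. It had 26789, 18798 and 30207 normalized counts in wild-type replicates 1, 2 and 3 and 35688, 51889 and 44548 in STK25KO. Every STK25KO library lay above every wild-type library. On the log2 scale the difference was 0.81 (95% interval 0.21 to 1.42, limma adjusted p = 0.0851). It was 0.96 without STK25KO replicate 1, where it passed (limma adjusted p = 0.0462), and 0.76 without both libraries that stood apart (limma adjusted p = 0.00159).

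PLN, on chromosome 6 (118548298 to 118560730, plus strand), encodes phospholamban, which inhibits SERCA2 until protein kinase A phosphorylates it. It had 53745, 61557 and 51495 normalized counts in the wild type and 34273, 31287 and 32532 in STK25KO. The lowest wild-type library was well above the highest STK25KO library, and the SD was 1500 in STK25KO against 5281 in the wild type. The log2 fold change was -0.76 (SE 0.20, limma adjusted p = 0.0459). This call was close to the threshold and depended on single libraries: it was lost at 0.173, 0.0926 and 0.132 when wild-type replicates 1, 2 and 3 were left out and at 0.128 and 0.167 when STK25KO replicates 2 and 3 were (limma adjusted p), with fold changes from -0.82 to -0.69. PLN lies within the span of CEP85L on the opposite strand. They share no exon bases, and CEP85L had 262 to 373 normalized counts over the 6 libraries.

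SLN encodes sarcolipin, the SERCA inhibitor of atrial and skeletal muscle (chromosome 11, 107707378 to 107719693, minus strand). It was close to absent, with 0, 3 and 15 reads in the wild type and 72, 24 and 18 reads in STK25KO. In normalized counts these were 0, 2.29 and 9.57 against 91.5, 26.7 and 16.0. The groups did not overlap, but STK25KO replicate 1 alone held most of the STK25KO total. On the log2 scale the difference was 3.43 (95% interval 0.95 to 5.91, limma adjusted p = 0.0777), and 2.73 without STK25KO replicate 1 (limma adjusted p = 0.171). With so few reads it moved from 1.78 with a pseudocount of 10 to 4.69 with one of 0.1, and from 2.58 without wild-type replicate 1 to 4.28 without wild-type replicate 3. DESeq2 on recovered reads called it (3.42, adjusted p = 0.0208). At 45 normalized counts in the mean STK25KO library, SLN stood at a small part of the 32697 of PLN.

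The ratio of inhibitor to pump was then formed within each library, where the 1 scaling factor per library cancels. A shift tied to transcript length would not cancel. Per kilobase of transcript, PLN stood at 5.72, 9.33 and 4.86 times ATP2A2 in wild-type replicates 1, 2 and 3 and at 2.74, 1.72 and 2.08 times in STK25KO. The highest STK25KO ratio was below the lowest wild-type ratio. Each genotype had its highest ratio in the library that stood apart. The transcript of PLN (2001 bases) is among the shortest and that of ATP2A2 (5702 bases) among the longest. The part of transcript length in this ratio was not tested. The log2 ratio of normalized counts was 1.16 ± 0.49 in the wild type and -0.41 ± 0.34 in STK25KO (SD, n = 3 each), a difference of -1.58 (exact two-sided permutation test, p = 0.1, adjusted p = 0.15 over 9 ratios). With 3 against 3 libraries 0.1 is the smallest p this test can give, so none of the 9 ratios could pass. Leaving out 1 library at a time, the difference ran from -1.77 to -1.30. SLN was at most 0.199% of ATP2A2 per kilobase in any wild-type library and 0.226% to 1.61% in STK25KO libraries.

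The bases before the starts of ATP2A2, PLN and the called store gene CASQ2 are printed below. They come from RefSeq on GRCh38.p14, which held 9 of the 10 genes. As printed they run up to 250 bases, 5′ to 3′, and end before the first transcribed base of RefSeq and GENCODE. The motif search covered all 250 bases before the RefSeq start in each of the 9 genes. Those of TRDN lay partly, and those of JPH2 and SLC8A1 wholly, within the GENCODE gene. The windows of CASQ2, HRC and ITPR1 also ran past the GENCODE start. Capitals mark matches to any of 8 motifs searched on both strands. These were the MEF2 box, the CArG box, the TATA box (TATAAA), the GATA site (AGATAA), the E-boxes (CACGTG) and (CAGCTG), the TEAD site (CATTCC) and the GC box (GGGCGG).
ATP2A2, chr12:110280366-110280615, plus strand: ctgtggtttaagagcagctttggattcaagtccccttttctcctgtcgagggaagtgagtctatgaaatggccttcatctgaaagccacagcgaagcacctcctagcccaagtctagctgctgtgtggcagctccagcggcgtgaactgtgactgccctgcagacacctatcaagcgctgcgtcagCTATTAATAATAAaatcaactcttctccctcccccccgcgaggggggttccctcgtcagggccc
PLN, chr6:118548046-118548295, plus strand: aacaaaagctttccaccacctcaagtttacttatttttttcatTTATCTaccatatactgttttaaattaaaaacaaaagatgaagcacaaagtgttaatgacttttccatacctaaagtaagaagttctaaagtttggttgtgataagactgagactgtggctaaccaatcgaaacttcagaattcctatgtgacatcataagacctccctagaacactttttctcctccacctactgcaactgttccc
CASQ2, chr1:115768782-115768964, minus strand: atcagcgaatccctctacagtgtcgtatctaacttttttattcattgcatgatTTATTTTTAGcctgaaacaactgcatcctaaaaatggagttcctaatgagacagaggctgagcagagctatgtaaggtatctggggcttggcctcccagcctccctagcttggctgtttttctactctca
A MEF2 box was matched in 2 of the 9 genes, ATP2A2 and CASQ2, and in 2.80% of 35116 promoters of the same length. In ATP2A2 2 overlapping matches ran from 64 to 52 bases before the RefSeq start, and in CASQ2 the match ran from 197 to 188 bases before it. The match in PLN was AGATAA on the opposite strand, a sequence that 9.17% of all promoters held. SLC8A1 also had it, in its window within the GENCODE gene. No CArG box or TATAAA was matched in the 9 windows, against 1.16% and 10.7% of all promoters. The other motifs, with no capitals in these 3 windows, were in 6.34% (CACGTG), 14.0% (CAGCTG), 11.9% (CATTCC) and 42.6% (GGGCGG) of all promoters. The PLN window was poor in G and C, at 34.8% against a median of 58% over all promoters, while that of RYR2 was at 75.2%. Whether any of these motifs bears on the genotype differences was not tested.

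**Figure D2:**
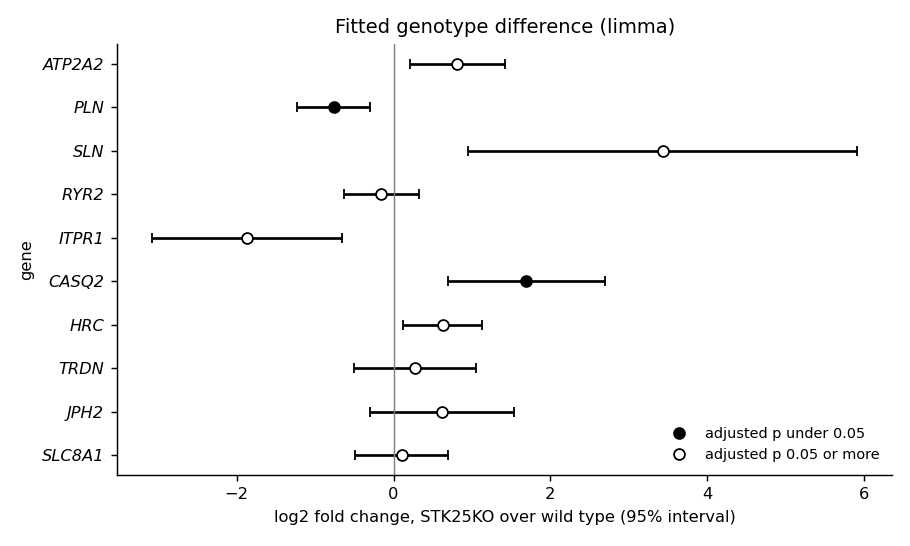
Log2 fold change of STK25KO over wild type for each of the 10 genes (limma, points) with the 95% interval (bars); filled points have an adjusted p under 0.05. PLN lies at -0.76 and CASQ2 at 1.69, and the intervals of RYR2, TRDN, JPH2 and SLC8A1 span 0.

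The release channels were compared next. RYR2, the ryanodine receptor of the heart, lies on chromosome 1 (237042205 to 237833988, plus strand). It had 2982, 2245 and 2491 normalized counts in the wild type and 2755, 2017 and 2176 in STK25KO, so the groups overlapped. The log2 fold change was -0.15 (95% interval -0.64 to 0.33, limma adjusted p = 0.697). That interval reaches down to a log2 change of -0.64, so these libraries did not exclude a moderate decrease.

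ITPR1, the IP3 receptor through which signalling by surface receptors releases calcium, lies on chromosome 3 (4493345 to 4847840, plus strand). It had 367, 126 and 158 normalized counts in the wild type and 68.6, 31.2 and 66.7 in STK25KO. All STK25KO libraries were below all wild-type libraries, and wild-type replicate 1 stood well above the other wild-type libraries. On the log2 scale the difference was -1.87 (SE 0.52, limma adjusted p = 0.0554), and -1.41 without wild-type replicate 1 (limma adjusted p = 0.196). It passed with 6 of 20 alternatives, among them DESeq2 on recovered reads (-1.96, adjusted p = 0.00385) and scaling to equal totals (-2.15, limma adjusted p = 0.0377). Without both libraries that stood apart it was -2.37 (limma adjusted p = 0.00574). An antisense gene shares 444 bases of exon with ITPR1, and the labels do not say whether strand was used, so reads of the 2 cannot be told apart.

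Relative to RYR2, per kilobase, ITPR1 stood at 20.0%, 9.09% and 10.3% in the wild type and at 4.05%, 2.51% and 4.98% in STK25KO. The 2 groups of ratios did not overlap (difference of log2 ratios -1.71, exact two-sided permutation test, p = 0.1, adjusted p = 0.15).

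Proteins of the store and of its junction with the surface membrane were compared after the channels. CASQ2, cardiac calsequestrin, lies on chromosome 1 (115700007 to 115768781, minus strand). It had 245, 277 and 348 normalized counts in the wild type and 455, 1317 and 1343 in STK25KO. All STK25KO libraries were above all wild-type libraries, and STK25KO replicate 1 lay nearer to the wild type than to its own group. The log2 fold change was 1.69 (SE 0.43, limma adjusted p = 0.0416). It was 2.21 without STK25KO replicate 1 (limma adjusted p = 0.00211). Leaving out any other single library ended the call, at limma adjusted p = 0.149, 0.0918 and 0.0910 for wild-type replicates 1, 2 and 3 and 0.116 and 0.147 for STK25KO replicates 2 and 3. Equal totals also ended it (1.41, limma adjusted p = 0.120).

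HRC, a histidine-rich calcium-binding protein of the store, lies on chromosome 19 (49151198 to 49155424, minus strand). It had 3362, 3702 and 2854 normalized counts in the wild type and 6431, 4485 and 4524 in STK25KO. The groups did not overlap, and the log2 fold change was 0.63 (95% interval 0.12 to 1.13, limma adjusted p = 0.105). Without both libraries that stood apart it was 0.54 (limma adjusted p = 0.0140).

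TRDN, triadin, ties calsequestrin to the ryanodine receptor and lies on chromosome 6 (123216339 to 123637093, minus strand). It had 9265, 14684 and 7356 normalized counts in the wild type and 17188, 8827 and 11634 in STK25KO. The groups overlapped, with the highest value of each in the libraries that stood apart. On the log2 scale the difference was 0.27 (95% interval -0.50 to 1.05, limma adjusted p = 0.661), and it turned to -0.0088 with equal totals.

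JPH2, junctophilin 2, holds the store membrane against the surface membrane and lies on chromosome 20 (44111695 to 44187578, minus strand). It had 4759, 2584 and 6658 normalized counts in the wild type and 4392, 8937 and 7471 in STK25KO. STK25KO replicate 1 fell within the wild-type range. The log2 fold change was 0.61 (95% interval -0.30 to 1.53, limma adjusted p = 0.370), and 0.54 without both libraries that stood apart (limma adjusted p = 0.0347).

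SLC8A1, the sodium-calcium exchanger that carries calcium out of the cell, lies on chromosome 2 (40097270 to 40611053, minus strand). It had 7990, 5069 and 8680 normalized counts in the wild type and 6920, 9152 and 6877 in STK25KO. The groups overlapped and the log2 fold change was 0.10 (95% interval -0.49 to 0.70, limma adjusted p = 0.847), turning to -0.18 with equal totals, to -0.14 without wild-type replicate 2 and to -0.070 without both libraries that stood apart. SLC8A1-AS1, an antisense gene, shares 2040 bases of exon with it, where reads of the 2 cannot be told apart either.

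Although SLC8A1 itself overlapped between genotypes, its ratio to the pump did not. Per kilobase it stood at 8.10%, 7.33% and 7.81% of ATP2A2 in wild-type replicates 1, 2 and 3 and at 5.27%, 4.79% and 4.19% in STK25KO. This was the ratio with the smallest spread of the 9, with SDs of 0.074 and 0.17 on the log2 scale. The difference of log2 ratios was -0.71 (exact two-sided permutation test, p = 0.1, adjusted p = 0.15, n = 3 each), and leaving out 1 library at a time moved it only between -0.79 and -0.62.

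Of the 9 ratios 6 did not overlap between the genotypes. Single genes did not overlap for 33.4% of all genes tested, and the share among ratios of other genes was not measured. The 9 ratios use some genes repeatedly. Each of the 6 holds at least 1 gene that did not overlap on its own, so they add no separate count. One of the 6, SLN to ATP2A2, rested on the pseudocount: its difference of log2 ratios was 2.62 as reported, 3.88 with a pseudocount of 0.1 and 0.97 with one of 10 (exact two-sided permutation test, p = 0.4). CASQ2 to RYR2 per kilobase was 0.508, 0.765 and 0.866 in the wild type and 1.02, 4.04 and 3.82 in STK25KO, a 3.60-fold difference between the means of log2 ratios (exact two-sided permutation test, p = 0.1, adjusted p = 0.15). That difference was 1.85 on the log2 scale, 2.49 without STK25KO replicate 1 and 2.56 without both libraries that stood apart. The 3 that overlapped were TRDN to RYR2 (exact two-sided permutation test, adjusted p = 0.4), JPH2 to RYR2 (adjusted p = 0.386) and HRC to CASQ2 (adjusted p = 0.4). In the last, STK25KO replicate 1 stood at 15.8, above the wild type's 15.4, 15.0 and 9.19, while STK25KO replicates 2 and 3 stood at 3.82 and 3.78.

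**Figure D3:**
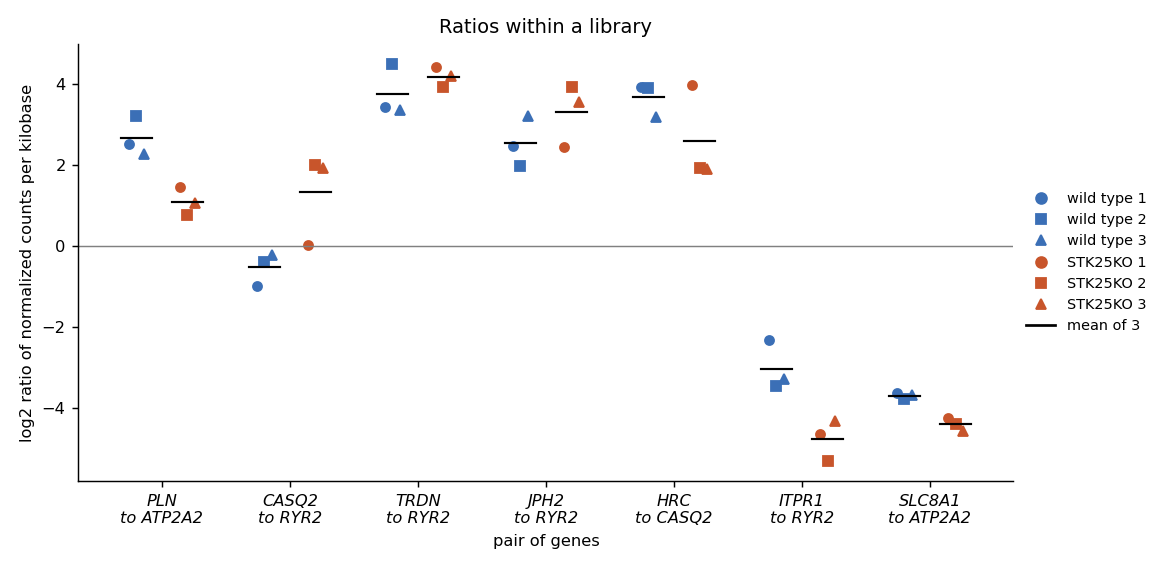
Log2 ratio of normalized counts per kilobase for 7 pairs of genes in each library, with wild type in blue, STK25KO in orange and the bar at the mean of 3 log2 ratios. PLN to ATP2A2, CASQ2 to RYR2, ITPR1 to RYR2 and SLC8A1 to ATP2A2 do not overlap between genotypes; the 2 ratios of SLN, which was at 0 in 1 library, are not drawn.

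Over the 10 genes the groups did not overlap for 6, 4 higher and 2 lower in STK25KO, against 33.4% of all genes tested (16.2% higher and 17.2% lower). The median log2 fold change of the 10 was 0.44, beside 0.0052 for all genes tested. With equal totals the median of all genes was -0.27, and with all libraries scaled to the 12 cardiomyocyte markers it was -0.41. That marker scaling called 16.8% of all genes, 3.17% higher and 13.7% lower, and 0 and 2 of the 10. DESeq2 on recovered reads called 20.7%, 10% higher and 10.7% lower, and 3 and 2 of the 10. edgeR on the same reads called 12%, 5.57% higher and 6.42% lower, and 1 and 1 of the 10. The replicate block called 5.14%, 2.24% higher and 2.9% lower, and none of the 10 in either direction.

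Levels were set beside each other per kilobase of the longest transcript. The order in the wild type was PLN (27786 ± 2639, SD, n = 3), ATP2A2 (4431 ± 1027), TRDN (2188 ± 797), HRC (1386 ± 179), JPH2 (975 ± 426), SLC8A1 (345 ± 91.4), RYR2 (155 ± 22.6), CASQ2 (108 ± 19.8), ITPR1 (21.3 ± 12.9) and SLN (4.36 ± 5.52). Over the 3 libraries the ranges of neighbours in this order overlapped for TRDN and HRC and for HRC and JPH2, and for no other pair. In STK25KO the first 5 places were the same, with PLN at 16340 ± 750 and ATP2A2 at 7724 ± 1423. CASQ2 moved from the eighth place to the sixth at 388 ± 189, above SLC8A1 at 364 ± 62.0, whose range it overlapped as TRDN did that of HRC, and SLN at 49.4 ± 45.1 stood above ITPR1 at 5.44 ± 2.07. Taking the union of exons as the length exchanged only TRDN and HRC, in STK25KO.

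The paralog that carried each family was read from the same scale. ATP2A2 held 98.9% ± 0.43 of the SERCA family in the wild type and 99.6% ± 0.25 in STK25KO (SD, n = 3 each), RYR2 97.4% ± 0.53 and 97.1% ± 1.9 of the ryanodine receptors, and SLC8A1 99.9% ± 0.060 and 99.4% ± 0.70 of the exchangers. In these 3 families the other members, ATP2A1, ATP2A3, RYR1, RYR3, SLC8A2 and SLC8A3, each held at most 4.399% in any library. JPH2 held 78.1% ± 7.0 and 82.0% ± 8.7 of the junctophilins, with JPH1 next, then JPH3, and JPH4 near 0.

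In the calsequestrins the cardiac paralog did not lead. CASQ1, the calsequestrin of skeletal muscle, held 91.7%, 89.8% and 90.5% of the pair in wild-type replicates 1, 2 and 3, and CASQ2 the remaining 8.32%, 10.2% and 9.45%. In STK25KO CASQ2 held 17.0%, 29.3% and 27.2%. CASQ1 itself had 1914, 1736 and 2367 normalized counts in the wild type and 1576, 2256 and 2544 in STK25KO, which overlapped (log2 fold change 0.07, limma adjusted p = 0.898). CASQ1 was thus the more abundant calsequestrin in all 6 libraries.

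The make-up of the IP3 receptors is given as a description, with no test. ITPR1 held 85.9%, 50.2% and 61.4% of the family in the wild type and 42.2%, 27.4% and 46.9% in STK25KO. In STK25KO replicate 2 ITPR3 held more, at 46.4%. ITPR2 and ITPR3 overlapped between genotypes (log2 fold change -0.18 and -0.03, limma adjusted p = 0.863 and 0.975), at 25.7 to 63.8 and 36.3 to 78.5 normalized counts. With the union of exons as length the means for ITPR1 were 42.0% and 17.6% in place of 65.8% and 38.8%, since that union is long for ITPR1. By that length ITPR3 had the largest mean share in STK25KO, at 51.0%.

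**Figure D4:**
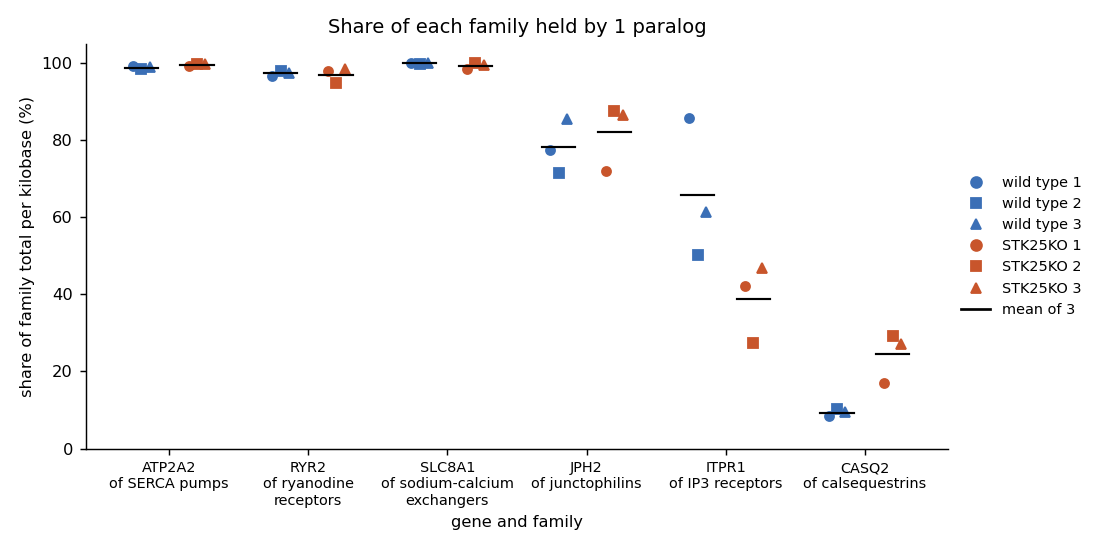
Share, in percent of the family's total per kilobase of the longest transcript, held by 1 paralog in each library, with wild type in blue, STK25KO in orange and the bar at the mean of 3. ATP2A2, RYR2 and SLC8A1 are near 100% in all libraries, while CASQ2 is at most 10.2% in the wild type and at least 17.0% in STK25KO and ITPR1 is lower in every STK25KO library.

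The rest of the pathway was read from 7 lists of 87 genes, of which 76 were tested. The test called 9 of them, 5 higher and 4 lower, or 11.8% beside the 12.8% of all genes, a share near the background. Without both libraries that stood apart it called 17 of 75 higher and 15 lower, beside 15.7% and 14.9% of all genes. Those 2 libraries were left out after their values were seen, so these counts are not read as a result about the lists. DESeq2 on recovered reads called 11 higher and 7 lower, and scaling to cardiomyocyte markers 2 and 13. No luminal calcium-binding protein passed among 12, which included the chaperones CALR and CANX.

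In the junction list 2 of 11 tested genes passed. TMEM38A, a potassium channel of the store membrane that balances charge during calcium release, had 3329, 3306 and 3167 normalized counts in the wild type and 13928, 12079 and 13653 in STK25KO. That was a rise of 4.05-fold with little spread in either group (log2 fold change 2.01, SE 0.17, limma adjusted p = 0.000472). Its paralog TMEM38B had 1358, 967 and 1461 against 456, 858 and 839 (log2 fold change -0.85, limma adjusted p = 0.120). BIN1, which shapes the surface tubules, rose from 418, 380 and 455 to 1243, 1348 and 1673 (log2 fold change 1.76, SE 0.21, limma adjusted p = 0.00237). TMEM38A and BIN1 passed under all 20 alternatives.

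Among partners of the release channel and the pump, CAMK2D, the main calcium/calmodulin-dependent kinase of the heart, had 6992, 4160 and 7339 normalized counts in the wild type and 10938, 21460 and 17402 in STK25KO. Its log2 fold change was 1.42 (SE 0.32, limma adjusted p = 0.0273), 1 of 13 tested in its list to pass. Its paralogs CAMK2A, CAMK2B and CAMK2G did not pass (log2 fold change -0.64, -0.75 and 0.72, limma adjusted p = 0.180, 0.0799 and 0.363). PPP1R3A, a muscle targeting subunit of protein phosphatase 1, rose from a mean of 484 (SD 38.9) to 954 (SD 65.5), a log2 fold change of 0.98 (limma adjusted p = 0.0187), 1 of 12 tested in the list of pump regulators. STRIT1, whose peptide DWORF displaces phospholamban from the pump, had 2, 4 and 5 reads in the wild type and 66, 13 and 9 in STK25KO and did not pass (log2 fold change 2.48, limma adjusted p = 0.135). CAMK2D lost its call without each library except STK25KO replicate 1, with adjusted p up to 0.105, and PPP1R3A without wild-type replicate 1 or 3 or STK25KO replicate 2 or 3, with adjusted p up to 0.0831. Equal totals and cardiomyocyte marker scaling also ended both calls (limma adjusted p = 0.116 and 0.102 for CAMK2D, 0.104 and 0.156 for PPP1R3A). So did quantile normalization (0.0820) and eBayes without trend (0.0592) for CAMK2D.

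At the surface membrane CACNA1G, a low-voltage-activated T-type calcium channel, fell from 500, 508 and 646 normalized counts to 0, 39.0 and 18.7, which are 0, 35 and 21 reads. The wild-type mean was 28.7-fold above that of STK25KO (log2 fold change -5.89, SE 1.22, limma adjusted p = 0.0193). The fold change was -4.29 without STK25KO replicate 1 and -6.95 without STK25KO replicate 2, and the call was lost without wild-type replicate 1, 2 or 3 (limma adjusted p = 0.0748, 0.0532 and 0.0723) and with a pseudocount of 0.1 (-7.03, limma adjusted p = 0.0651). CACNA1H, of the same channel class, had 157, 220 and 192 against 667, 269 and 290 (log2 fold change 0.99, limma adjusted p = 0.152). ATP2B1, a calcium pump of the surface membrane, rose from a mean of 1038 (SD 193) to 2169 (SD 459), a log2 fold change of 1.06 (limma adjusted p = 0.0251). That call was lost without wild-type replicate 1 or 3 or STK25KO replicate 2 or 3, with adjusted p up to 0.106, and with cardiomyocyte marker scaling (0.64, limma adjusted p = 0.0982) or eBayes without trend (limma adjusted p = 0.0517).

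Of 8 tested genes of store-operated entry, by which an emptied store opens channels in the surface membrane, 2 fell and none rose. ORAI3 went from 2287, 2390 and 2073 normalized counts to 967, 646 and 628 (log2 fold change -1.62, SE 0.23, limma adjusted p = 0.00422). It passed under all 20 alternatives. ORAI2 fell by 0.83 on the log2 scale (limma adjusted p = 0.0446), a call lost without each library except wild-type replicate 2, with adjusted p up to 0.176, with no filter (0.0595) and with eBayes without trend (0.0641). The store's calcium sensors STIM1 and STIM2 had opposite signs with no overlap and did not pass (log2 fold change 0.78 and -0.80, limma adjusted p = 0.0770 and 0.0905).

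Mitochondria take up calcium through a uniporter, and of 11 tested genes of mitochondrial calcium transport, which also held VDAC1, VDAC2, LETM1 and SLC8B1, only MCUB passed. MCUB encodes the subunit that dampens the uniporter. Its level fell from a mean of 521 (SD 94.98) to 219.6 (SD 35.7), a log2 fold change of -1.24 (limma adjusted p = 0.0217), a call lost without each library except STK25KO replicate 1, with adjusted p up to 0.0796. The pore subunit MCU had a log2 fold change of -0.11 (limma adjusted p = 0.930).

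**Figure D5:**
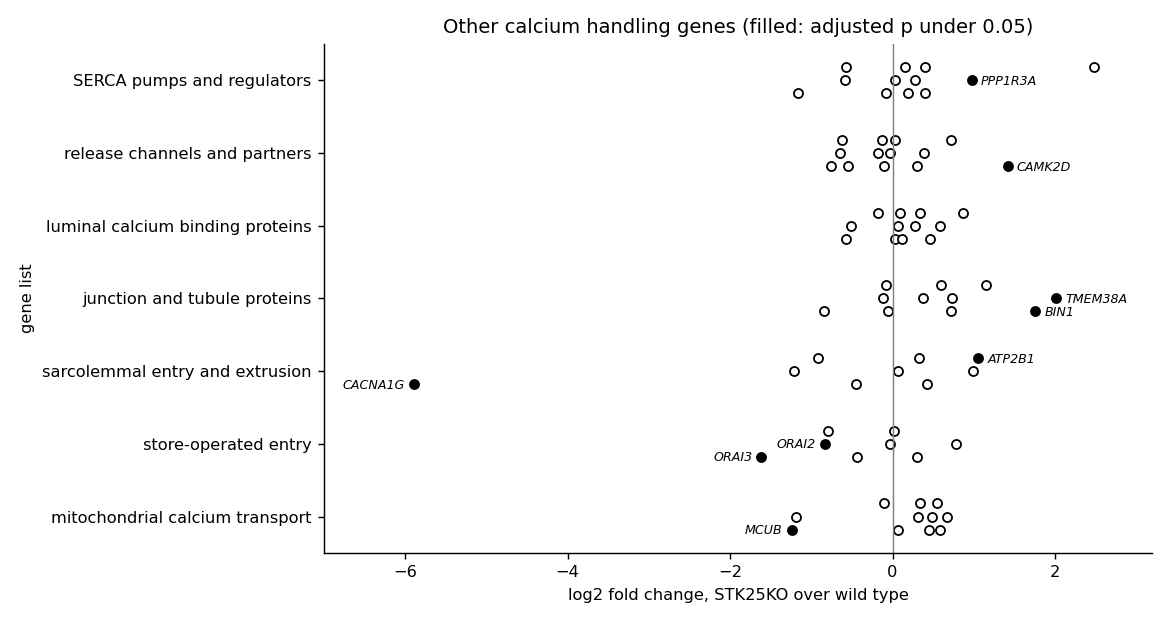
Log2 fold change of STK25KO over wild type (limma) for the 76 tested genes of 7 lists around calcium handling, 1 row per list, with vertical offsets only to separate points. Filled, named points have an adjusted p under 0.05: 5 lie to the right and 4 to the left, CACNA1G farthest at -5.89.

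The genes whose profile over the 6 libraries was nearest to a called member were found among 13035 others with a mean of at least 50, by the root mean square difference of centred log2 values. COQ2 (0.055) and TPRA1 (0.061) lay nearest to PLN and TEC (0.20) and NELL1 (0.22) nearest to CASQ2. COQ2 had 1402, 1748 and 1307 normalized counts in the wild type and 885, 854 and 884 in STK25KO. NELL1 had 75.5, 132 and 122 against 206, 494 and 462, with STK25KO replicate 1 between the groups as for CASQ2.

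Markers of cell types moved with the genotype, and in bulk RNA fewer cells of a type and less RNA per cell cannot be told apart. The summed level of 12 cardiomyocyte markers was 1471600 to 1858320 normalized counts in wild-type libraries and 2141220 to 3932610 in STK25KO libraries. MYL7 was the largest part of it in every library, at 442989, 739950 and 441630 against 2324410, 860614 and 1258030. Among the 12 markers 1 passed, NKX2-5, which was lower. Scaled to these markers, PLN was -1.18 (limma adjusted p = 0.00803), ITPR1 -2.28 (limma adjusted p = 0.0179), CASQ2 1.276 (limma adjusted p = 0.109) and ATP2A2 0.39 (limma adjusted p = 0.393). Of 7 ventricular markers 5 were lower and none higher. Their sum, from 149705 to 191210 and from 141052 to 242474, overlapped, but it was mostly MYL3, which was not called. MYL3 had 110472, 139518 and 101682 against 234041, 133175 and 155930. Of 9 tested atrial markers, NPPA, KCNA5 and GJA5 were lower and NR2F2 higher, and the median log2 fold change of the 9 was 0.17. Their sum, from 158043 to 256013 against 28389 to 55179, was almost wholly NPPA, at 160904, 251229 and 151985 against 52069, 25528 and 32744.

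Smooth muscle markers were higher for 5 of 7, with sums of 81877 to 91702 and of 494503 to 544423. Skeletal muscle markers had sums of 36234 to 40219 and of 114614 to 118142, where MYH3 and CKM were higher and ACTA1 lower, while MYOD1, MYF5 and PAX7 were at 0 in all 6 libraries. Of 8 fibroblast markers 3 were higher and 1 lower, with sums of 12950 to 26529 and of 8205 to 16655. Neural markers were higher for 3 of 6 tested, at sums of 77.2 to 132 and of 486 to 835. Endothelial markers had no call among 3 tested, with sums from 140 to 466 and from 367 to 545. Of 4 tested endoderm and liver markers 1 was higher and 1 lower (sums 1671 to 3009 and 1493 to 1663), and of 5 tested pluripotency markers 1 was higher (sums 960.5 to 1043 and 3098 to 4469). The part of these cell types in the calcium handling results was not tested.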

How the data were processed

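RNA of 6 cultures was sequenced. Per the labels' protocols, total RNA was column-purified, treated with DNase, amplified as cDNA (Clontech Ultra Low v4) and made into NexteraXT libraries. The submitters' processing notes list bcl2fastq 2.19, kallisto 0.44.0, DESeq2 1.28.1 and GRCh38, without roles. The deposited table holds 1 signal value per gene and library, which its name calls normalized counts. All values (100%, within 0.01 reads) were whole multiples of 1 step per library, so whole counts, called reads here, were recovered by division. The labels do not say how whole counts came from the listed tools, so they may be rounded estimates. Columns were matched by the names in the labels, and 0 columns were unused. No 2 replicates agreed within counting error (chi-square over its degrees of freedom 18.9 to 363).

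limma 3.58.1 in R 4.3.3 (lmFit, eBayes with trend) was fitted to log2(value + 1) of all genes with a mean of at least 10, with 6 libraries and no covariate. Ratios were tested by exact permutation with scipy 1.17.1. As alternatives the recovered reads were tested with edgeR 4.0.16, which called 1864 genes, and with DESeq2 1.42.0, beside other pseudocounts, filters, scalings, moderation, a replicate block and leaving out libraries. The limma and edgeR fits were tested on simulated data. Lengths and positions came from GENCODE 29. The labels name no molecular identifiers, so depth speaks for counting error only.

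The genes named are STK25, the 10 genes, genes of the pathway lists with an adjusted p under 0.05, the paralogs of 6 families and the 2 genes nearest to each called member. CALR, CANX, CEP85L, STRIT1, TMEM38B, CAMK2A, CAMK2B, CAMK2G, CACNA1H, STIM1, STIM2, MCU, VDAC1, VDAC2, LETM1, SLC8B1 and the cell type markers named were added after their values were seen. The 10 genes and all lists were chosen with earlier results of these data known. A gene of the pathway lists is not reported here and enters none of their counts.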

Additional observations from a re-analysis of the deposited data

How the results depend on the processing

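A pseudocount of 0.1, a mean of at least 50 (which gives SLN no value) and edgeR on recovered reads moved no call among the 10 genes and STK25 and no count below by over 1.5 times. Counts below are members higher, members lower, other pathway genes higher and lower (1, 1, 5 and 4 as reported). A pseudocount of 10 gave 2 lower members, with ITPR1 at -1.70 (adjusted p = 0.049996). No filter gave 0 lower members (PLN -0.76, adjusted p = 0.119). Equal upper quartiles moved PLN to -0.81 (adjusted p = 0.0618) and ITPR1 to -1.92 (adjusted p = 0.049966). Equal totals gave 0, 2, 3 and 9, with ITPR1 at -2.15, CASQ2 at 1.41, TRDN at -0.0088 and SLC8A1 at -0.18. Quantile normalization turned SLC8A1 to -0.12. Scaling to cardiomyocyte markers gave 0, 2, 2 and 13, with ITPR1 at -2.28, CASQ2 at 1.276, TRDN at -0.15 and SLC8A1 at -0.32. eBayes without a trend gave 0, 0 and 3 in the first 3 counts (PLN -0.76 and CASQ2 1.69, adjusted p = 0.0589 and 0.0738), and robust eBayes 0 lower members (PLN -0.76, adjusted p = 0.0593). DESeq2 gave 3, 2, 11 and 7, with ATP2A2 at 0.80, SLN at 3.42 and ITPR1 at -1.96. Without wild-type replicate 2 and STK25KO replicate 1 together, chosen after seeing the data, the counts were 4, 2, 17 and 15, with ATP2A2 at 0.76, ITPR1 at -2.37, HRC at 0.54, JPH2 at 0.54 and SLC8A1 at -0.070. Leaving out each library in turn, the counts ran from 0 to 2, 0 to 1, 2 to 6 and 1 to 5, and fold changes from 0.61 to 0.96 for ATP2A2, -0.82 to -0.69 for PLN, 1.43 to 2.21 for CASQ2, -0.14 to 0.25 for SLC8A1 and -1.24 to -1.05 for STK25. SLC8A1 turned to -0.14 without wild-type replicate 2 and to -0.033 without STK25KO replicate 2. The cause of these changes was not tested. All 9 ratios kept their sign under their 10 alternatives, though SLN to ATP2A2 went from 2.62 to 0.97 with a pseudocount of 10, where the genotypes overlapped, and to 3.88 with 0.1.

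The labels do not say that the replicate numbers pair the libraries. Deviations of same-numbered libraries correlated at -0.235, -0.400 and 0.169, and 1 of 6 libraries correlated best with its own number. The 2 libraries that stood apart, wild-type replicate 2 and STK25KO replicate 1, correlated at 0.4485. With 3 libraries per genotype their shift bears on the other correlations, so the check cannot show whether cultures were paired. With the replicate number as a block the counts were 0, 0, 2 and 2, with PLN at -0.76 (adjusted p = 0.272), CASQ2 at 1.69 (adjusted p = 0.0551) and STK25 at -1.12 (adjusted p = 0.0684), and 798 of all genes were called in place of 1982. Depth limits SLN and STRIT1, whose wild-type libraries held at most 15 and 5 reads.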
